A study of Mus musculus with 8 samples.

Results

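The 3 genes described here belong to the peptide signalling of the mouse suprachiasmatic nucleus (SCN), the circadian pacemaker in the hypothalamus, and were followed across circadian time. They are Vip, the gene of vasoactive intestinal peptide, Vipr2, the gene of its receptor VPAC2, and Adcyap1r1, the gene of the receptor PAC1. They were chosen by symbol and are 3 of the 20741 genes in the deposited table of sense-strand gene reads. All rows with these symbols in the intron, exon and splice junction tables were taken with them. The study sequenced polyadenylated RNA of the SCN of C57/BL6 mice, which were kept in 12-h light and 12-h dark and then moved to complete darkness. One library was made every 6 h over 2 days, and each library pooled equal amounts of RNA from 3 mice. The 8 libraries fall on 4 circadian times (CT): CT4 and CT10 in the subjective day, and CT16 and CT22 in the subjective night. Times are those of the library titles, although the protocol names an earlier hour for the first collection. All animals were of 1 strain and untreated, and their age is not given in the labels. The labels state no replicates, so the 2 libraries of a circadian time, collected 24 h apart, were used as a group. Every p-value rests on pooled libraries and does not measure the spread between mice. In the fits of circadian time the spread between libraries also takes in any change from the first day to the second.

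VIP is made by neurons of the ventral SCN, which receive the input of the retina, and it is released onto neighbouring SCN neurons. VPAC2 is a class B1 receptor that couples through Gs to adenylyl cyclase, and signalling through it keeps the cellular clocks of the SCN in step. PAC1 is the main receptor of PACAP, the product of Adcyap1, a peptide that also occurs in the retinal axons that reach the SCN, and VIP binds PAC1 only weakly.

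One Vip transcript encodes a precursor from which 2 peptides are cut. The sequences are shown because the reads counted below come from the transcript that carries them. They are from the GENCODE M21 transcripts on GRCm38, and all 6 intron lengths of the deposited Vip introns match that transcript, although the gene lies on the minus strand in mm9 and on the plus strand in GRCm38. Exon 4 (chr10:5643523-5643627, plus strand) holds the 27 codons of PHI and exon 5 (chr10:5643987-5644118) the 28 codons of VIP, both in capitals. Exon 3 (chr10:5642469-5642594) begins with 3 bases, in capitals, that a second acceptor leaves out. A similar choice occurs in Adcyap1r1, where the hop exon (chr6:55491227-55491310, plus strand), an 84-base cassette that lengthens an intracellular loop of PAC1, begins with 3 bases that a second acceptor leaves out. The hip exon (chr6:55487659-55487742) is another 84-base cassette at the same place in the transcript.
Vip exon 3: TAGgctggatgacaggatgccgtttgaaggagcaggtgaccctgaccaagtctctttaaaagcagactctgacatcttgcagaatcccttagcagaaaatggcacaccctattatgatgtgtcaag
Vip exon 4: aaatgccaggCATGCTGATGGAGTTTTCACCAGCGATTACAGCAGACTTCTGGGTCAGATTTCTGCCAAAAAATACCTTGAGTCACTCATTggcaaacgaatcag
Vip exon 5: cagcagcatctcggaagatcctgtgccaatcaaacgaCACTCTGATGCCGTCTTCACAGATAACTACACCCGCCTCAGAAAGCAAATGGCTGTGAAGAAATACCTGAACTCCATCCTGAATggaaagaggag
Adcyap1r1 hop exon: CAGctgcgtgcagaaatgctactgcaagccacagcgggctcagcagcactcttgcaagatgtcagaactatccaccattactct
Adcyap1r1 hip exon: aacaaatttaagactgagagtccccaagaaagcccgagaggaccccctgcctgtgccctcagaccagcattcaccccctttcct

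The gene table held 11123610 to 11131890 reads per library. All 12 SCN markers looked at were read in every library, with summed reads of 6582 to 10646 in the subjective day and 5173 to 9547 in the subjective night. Oligodendrocyte markers, 12 of 12 read in every library, summed to 59220 to 176098 reads by day and 92151 to 182575 by night, lowest in the first CT4 library. No member of the other 8 marker lists was without any read over the 8 libraries, and arcuate markers were highest in the first CT10 library with 1181 reads, against 217 to 518 in the others. The second CT22 library had the most reads of 5 of the 12 SCN markers, and the second CT4 library, which had the highest sum (10646 reads, against 9547), of another 5. Among those highest in the second CT22 library were Six3, Six6, Lhx1 and Zfhx3, transcription factors that mark SCN neurons, chosen after their levels were seen, with a mean log2 level there 0.63 above the average of the libraries, where the other 7 lay between -0.44 and 0.19. The second CT22 library also had the most Vip and Vipr2 reads, and the values that turn on it are given without it as well.

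Vipr2 (ENSMUSG00000011171, mm9 chr12:117316180-117384946) was the member that changed with circadian time, and its reads were lowest in the later subjective day and highest in the late subjective night. As CPM, its reads relative to the TMM-scaled library total, it had 52.7 and 53.0 CPM at CT4, 41.3 and 46.04 CPM at CT10, 77.8 and 64.5 CPM at CT16, and 83.3 and 143 CPM at CT22, in the first and the second cycle. Every night library was above every day library, and the order CT10, CT4, CT16, CT22 held without overlap between neighbouring times. The share of all genes that keep day and night or the times apart in this way was not counted. The means were 52.9 ± 0.231 CPM at CT4, 43.7 ± 3.36 CPM at CT10, 71.2 ± 9.38 CPM at CT16 and 113 ± 42.5 CPM at CT22 (SD, n = 2 each). A fitted 24-h wave had a log2 peak-to-trough difference of 1.45 ± 0.21 (SE), a ratio of 2.73, with its peak at CT20.9 ± 0.541 h and an adjusted p of 0.0157 (edgeR quasi-likelihood, Benjamini-Hochberg over 15217 genes). By this test 1 of the 3 members was called, where 17 genes, or 0.112% of all tested, were called and 8.6% had an unadjusted p under 0.05. By DESeq2 the adjusted p was 5.42e-08, in a fit that called 98 genes (0.644%). In RNA of whole tissue, fewer cells with the transcript and less transcript per cell cannot be told apart.

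Vipr2 averaged 48.3 CPM by day and 92.3 CPM by night, a day minus night log2 difference of -0.91 ± 0.15 (edgeR adjusted p = 0.0171). Vipr2 was 1 of 5 genes called lower by day (0.0329% of those tested) and 11 were called higher (0.0723%), so the comparison called 16 genes in all (0.105%), with 7.72% at an unadjusted p under 0.05. DESeq2 called 56 genes (0.368%) there. The day against night call was lost without either CT4 library, either CT10 library or the first CT16 library (edgeR adjusted p = 0.0530 to 0.106). Around dusk (CT10 and CT16) it averaged 57.4 CPM, against 83.1 CPM around dawn (CT22 and CT4), a log2 difference of -0.48 ± 0.15 that did not pass (edgeR adjusted p = 0.425), in a comparison that called 3 genes (0.0197%, with 7.84% at an unadjusted p under 0.05). Without a filter on low counts that difference passed (edgeR adjusted p = 0.00110), in a fit that called 239 of 20741 genes, against 3 with the filter. In DESeq2, which called 34 genes (0.223%), the dusk minus dawn difference did not pass (adjusted p = 0.161). Without the second CT22 library the wave was smaller, with a log2 difference of 1.04 and an adjusted p of 0.0247. The 24-h call was lost when the first CT10 library (adjusted p = 0.0838), the second CT4 library (0.0538) or the second CT10 library (0.0611) was left out. With the level of the 4 SCN genes as a further term, chosen after their levels were seen, the log2 peak-to-trough difference was 1.02 and the adjusted p 0.139, while day against night remained past the threshold at -0.70 (adjusted p = 0.0421). These 4 genes had waves that did not pass in edgeR: Lhx1 1.10 (peak CT20.8), Zfhx3 0.60 (CT22.5), Six6 0.80 (CT1.0) and Six3 0.36 (CT0.8). Whether the term itself takes up part of a 24-h pattern was not tested. With the oligodendrocyte level as a further term the Vipr2 peak-to-trough difference was 1.47 (adjusted p = 0.00876).

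**Figure D1:**
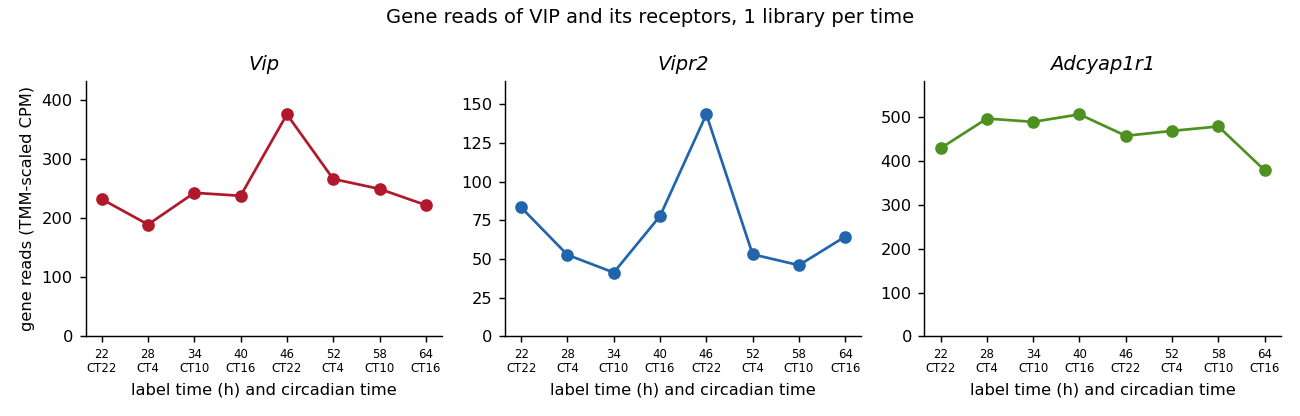
Gene reads of Vip, Vipr2 and Adcyap1r1 in TMM-scaled CPM (vertical axes from 0) against the time in the library titles in hours, with circadian time under it; each point is 1 library. Vipr2 is lowest at CT10 in both cycles (41.3 and 46.04 CPM) and highest at CT22, and the second CT22 library is the highest point of Vip (375 CPM) and of Vipr2 (143 CPM).

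Vip (ENSMUSG00000019772, mm9 chr10:4698846-4707338) showed no 24-h pattern that passed the test. It had 189 and 266 CPM at CT4, 243 and 249 CPM at CT10, 238 and 222 CPM at CT16, and 232 and 375 CPM at CT22. The second CT22 library stood above the others, which lay between 189 and 266 CPM. In the order CT22, CT10, CT16, CT4 of the means, CT10 and CT16 were the one pair of neighbours that did not overlap. The means were 228 ± 54.4 CPM at CT4, 246 ± 4.66 CPM at CT10, 230 ± 11.1 CPM at CT16 and 304 ± 101 CPM at CT22 (SD, n = 2 each). The log2 peak-to-trough difference was 0.30 ± 0.21 (edgeR adjusted p = 0.786). Vip averaged 237 CPM by day and 267 CPM by night, a log2 difference of -0.16 ± 0.15 (edgeR adjusted p = 0.834). Without the second CT22 library the day minus night difference turned to 0.05 and the fitted peak lay at CT10.4, against CT21.8 with all libraries. Over the whole second cycle Vip averaged 278 ± 67.2 CPM, against 225 ± 24.6 CPM in the first (SD, n = 4 each), a log2 difference of 0.29 ± 0.13 that did not pass (edgeR adjusted p = 0.999).

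Adcyap1r1 (ENSMUSG00000029778, mm9 chr6:55401933-55451891) varied least of the 3 genes. It had 496 and 468 CPM at CT4, 489 and 478 CPM at CT10, 506 and 378 CPM at CT16, and 429 and 457 CPM at CT22. The day libraries, 468 to 496 CPM, lay within the range of the night libraries, whose lowest was the second CT16 library, also the one with the most oligodendrocyte reads (182575). The first CT10 library had 176098 such reads and 489 CPM of Adcyap1r1. The part of these reads in the value of a single library was not tested. The SD over the 8 libraries was 9.04% of the mean, against 21.7% for Vip and 47.0% for Vipr2. The log2 peak-to-trough difference was 0.18 ± 0.13 (edgeR adjusted p = 0.815), and 0.20 ± 0.13 with the oligodendrocyte level as a further term (edgeR adjusted p = 0.836). The day minus night difference was 0.13 ± 0.09 (edgeR adjusted p = 0.786). The dusk minus dawn difference was 0.000707 ± 0.092 on the log2 scale, with a sign that changed between settings. Between the cycles, no gene passed the edgeR test (0%), with 543 (3.57%) at an unadjusted p under 0.05, and DESeq2 called 0 as well. Vipr2 averaged 76.8 CPM in the second cycle and 63.8 CPM in the first, and Adcyap1r1 446 CPM in the second and 480 CPM in the first. Whether the wave differed between the cycles was tested by an interaction, which no gene passed in edgeR (0%), with 394 genes (2.59%) at an unadjusted p under 0.05; the 3 members had an adjusted p of 1.

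Levels of different genes were compared per kb of annotated exon. Of the ligand, receptor and partner genes, the 17 with at least 10 reads in 2 libraries were compared. Vip was the most abundant of these, at 155 ± 33.7 CPM per kb (SD over 8 libraries). Adcyap1r1 followed with 68.8 ± 6.22 CPM per kb, and the ranges of the genes did not overlap (117 to 231 for Vip, 56.2 to 75.2 for Adcyap1r1). Adcyap1, which encodes PACAP, was read at 23.7 ± 2.23 CPM per kb. Vipr2 was at 15.9 ± 7.47 CPM per kb with a range of 9.32 to 32.4, which overlaps that of Adcyap1. Calcr, the calcitonin receptor, had 21.3 ± 3.25 CPM per kb and was the other class B1 receptor gene at a like level. Vipr1, which encodes VPAC1, the other receptor of VIP, had the lowest mean of the 17, 0.245 ± 0.125 CPM per kb with a range of 0.0694 to 0.436. That range overlaps the one of Gipr (0 to 0.695), the gastric inhibitory peptide receptor, whose mean was next above it. Of the receptor activity-modifying proteins, which partner class B1 receptors, Ramp1 stood at 9.06 ± 1.68, Ramp2 at 8.40 ± 1.62 and Ramp3 at 1.29 ± 0.324 CPM per kb.

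**Figure D2:**
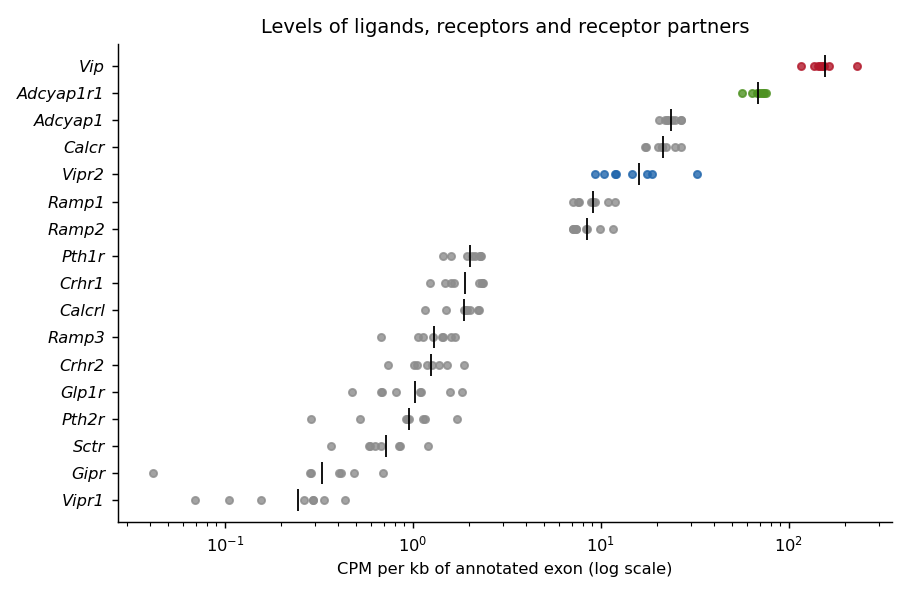
Levels in CPM per kb of annotated exon (log axis) of the ligand, receptor and partner genes with at least 10 reads in 2 libraries; each dot is 1 library, the black tick is the mean of the 8, and a library at 0 is not drawn. Vip (155) and Adcyap1r1 (68.8) lie highest and Vipr1 (0.245) lowest, and the dots of Vipr2 spread from 9.32 to 32.4.

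The ratio of Vipr2 to Vip reads was lower by day than by night. For each CPM of Vip there were 0.279 and 0.199 CPM of Vipr2 at CT4, 0.170 and 0.185 at CT10, 0.327 and 0.291 at CT16, and 0.359 and 0.382 at CT22. The day libraries, 0.170 to 0.279, lay below all night libraries, 0.291 to 0.382, and the second CT22 library did not stand apart in this ratio. The mean log2 ratio of Vipr2 to Vip was -2.29 ± 0.31 by day and -1.56 ± 0.17 by night (SD, n = 4 each), a difference of -0.73 (exact two-sided permutation p = 0.0286, the smallest that 4 against 4 can give; 0.0429 adjusted over 3 ratios). Vipr2 to Adcyap1r1 gave -3.33 ± 0.18 by day and -2.32 ± 0.46 by night, a difference of -1.01 with the same p-values by the exact permutation test, and the groups did not overlap. In this ratio the second CT22 library did stand apart, at 0.314, against 0.154, 0.170 and 0.194 in the other night libraries. Leaving out 1 library gave differences of -1.13 to -0.79 against Adcyap1r1, the smallest without the second CT22 library. Adcyap1r1 to Vip was 1.04 ± 0.25 by day and 0.76 ± 0.34 by night, which overlapped (exact permutation p = 0.286). When any of the 4 night libraries was left out, both ratios of Vipr2 missed the threshold (exact permutation, adjusted p = 0.0857), with differences of -0.80 to -0.67 against Vip. They stayed past it when any of the 4 day libraries was left out (adjusted p = 0.0429). Day and night libraries did not overlap in either ratio, whichever library was left out. With 4 against 3 libraries the test has few arrangements, so these p-values cannot show whether the ratios rest on the night libraries.

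Reads in introns, which can come from transcripts not yet spliced, were compared with the gene reads. The deposited intron and gene tables were each brought to nearly equal totals, so values are relative to each table. Introns that overlap another were left out, which kept 6 of 6 Vip, 11 of 13 Vipr2 and 14 of 17 Adcyap1r1 introns. Vipr2 intron 4, with 320 reads over the 8 libraries, was among those left out. So were Adcyap1r1 introns 13 and 14 beside the hop exon, with 758 and 613 reads. The sums of Vipr2 and Adcyap1r1 thus lack well-read introns. Vip introns had 136 and 182 reads at CT4, 131 and 125 at CT10, 79 and 64 at CT16, and 89 and 182 at CT22. They were lowest at CT16 and highest at CT4 and in the second CT22 library, which is not the order of the Vip gene reads. Set against 100 gene reads there were 6.45 and 6.15 intron reads at CT4, 4.79 and 4.50 at CT10, 3.03 and 2.58 at CT16, and 3.43 and 4.40 at CT22. On this measure the 4 times did not overlap, with CT4 highest, then CT10, then CT22, then CT16. How many other genes keep the times apart on this measure was not counted. The fitted wave of Vip intron reads had a log2 peak-to-trough difference of 1.11 ± 0.29 and a peak at CT3.7 ± 0.983 h, and did not pass over all genes (edgeR adjusted p = 0.247). Without a filter on low counts it passed (edgeR adjusted p = 0.0305), in a fit that called 124 of 18026 genes, against 34 of 12189 with the filter. The difference between intron and gene reads of Vip was 0.71 ± 0.15 for day minus night and -0.38 ± 0.15 for dusk minus dawn (log2), with an edgeR adjusted p of 0.426 and an unadjusted p of 0.000282. No gene passed that test in edgeR (0 of 10575, or 0%), and 710 (6.71%) were at an unadjusted p under 0.05.

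The summed Vipr2 introns, without intron 4, had 66 and 107 reads at CT4, 73 and 72 at CT10, 117 and 87 at CT16, and 127 and 222 at CT22. Both CT22 libraries were above all others, and the day and night libraries overlapped between 87 and 107 reads. The log2 peak-to-trough difference was 1.33 ± 0.29 with a peak at CT21.3 ± 0.842 h, against 1.45 and CT20.9 for the gene reads, and an edgeR adjusted p of 0.0740 among 12189 genes, of which 34 (0.279%) were called and 9.42% had an unadjusted p under 0.05. Without the filter on low counts it passed (edgeR adjusted p = 0.00100), in the fit that called 124 of 18026 genes. Without the second CT22 library the intron difference was 0.84 (edgeR adjusted p = 0.593). The difference between intron and gene reads of Vipr2 did not pass (edgeR adjusted p = 0.959), and their day minus night values differed by 0.14 ± 0.19. Adcyap1r1 introns had 229 and 196 reads at CT4, 186 and 131 at CT10, 187 and 105 at CT16, and 191 and 190 at CT22, with CT16 of the second cycle lowest. Their log2 peak-to-trough difference was 0.60 ± 0.24 with a peak at CT2.2 (edgeR adjusted p = 0.552), against 0.37 without the second and 0.95 without the first CT16 library. None of the 3 members passed the intron test.

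**Figure D3:**
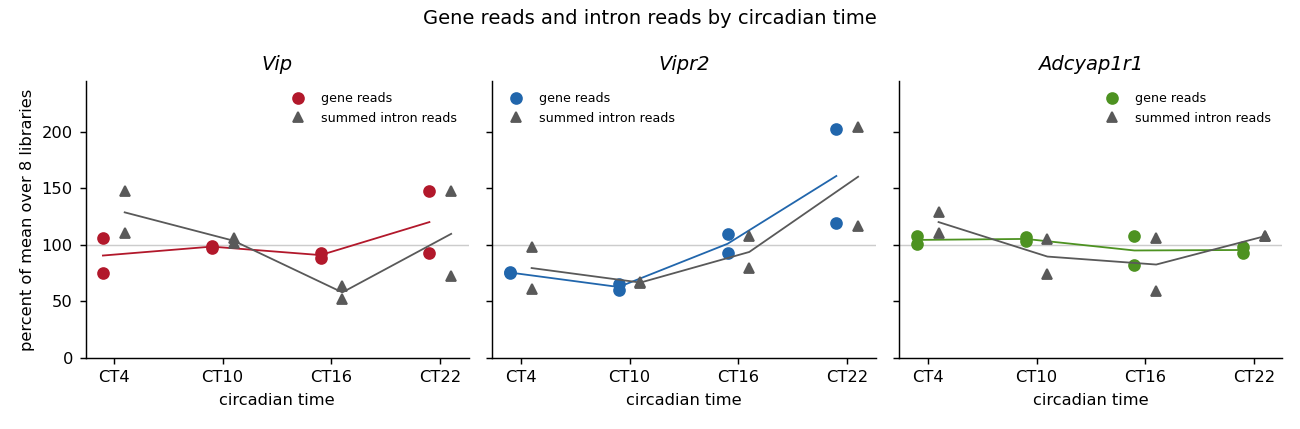
Gene reads (circles) and summed intron reads (triangles) of each gene as a percent of their own mean over the 8 libraries, by circadian time; each symbol is 1 library and lines join the means of 2. In Vipr2 both kinds of read are highest at CT22, and in Vip the intron reads are lowest at CT16 (79 and 64 reads) while the gene reads there (238 and 222 CPM) lie among the others.

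Spliced reads gave a view of Vipr2 along its 13 exons. Summed over its 12 annotated introns there were 113 and 118 spliced reads at CT4, 65 and 85 at CT10, 137 and 160 at CT16, and 228 and 327 at CT22, so every night library was above every day library. These reads come from the same libraries as the gene reads and are no independent measure. Of the 12 introns, 11 had more spliced reads by night than by day. The spread was widest at intron 4, the longest, of 27892 bases (mm9 chr12:117333292-117361183), with 15 and 2 reads at CT4, 3 and 1 at CT10, 9 and 28 at CT16, and 35 and 56 at CT22. The 2 CT22 libraries were above the rest and the first CT4 library lay among the night libraries. Its log2 peak-to-trough difference was 4.34 with an edgeR adjusted p of 0.0573 (0.0246 when junctions with 5 reads in 2 libraries were also tested, and 0.513 without the second CT22 library), where 14 of 78212 junctions (0.0179%) were called and none of the 37 tested junctions of the 3 genes. At an unadjusted p under 0.05 by edgeR stood 6 of 12 Vipr2, 0 of 9 Vip and 1 of 16 Adcyap1r1 junctions, against 5% of all junctions. The unspliced reads within intron 4 numbered 16 and 11 at CT4, 29 and 28 at CT10, 67 and 66 at CT16, and 40 and 63 at CT22. All 4 night libraries were above all day libraries, an order not counted over other introns. These reads were not part of the Vipr2 intron sum, and both CT16 libraries had the most.

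**Figure D4:**
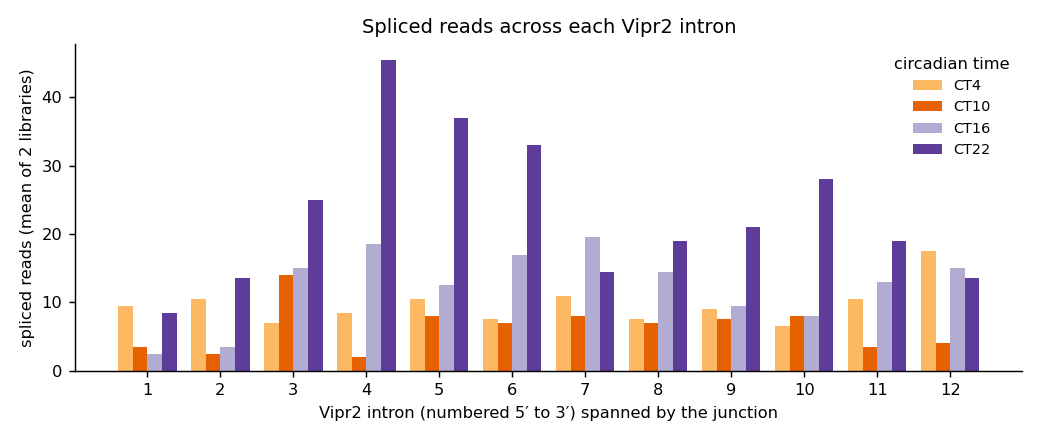
Spliced reads across each of the 12 Vipr2 introns, numbered from the 5′ end, as the mean of 2 libraries per circadian time. CT22 is the highest of the 4 times at most introns, and at intron 4 its mean is 45.5 reads, against 8.5 at CT4, 2 at CT10 and 18.5 at CT16.

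The last 2 Vipr2 introns had the highest read density. Intron 12 (1145 bases, mm9 chr12:117381465-117382609) held 429 reads over the 8 libraries, or 375 per kb, and intron 11, of 66 bases, held 43 reads, or 652 per kb, against 2.40 to 47.1 per kb in introns 1 to 10. Across intron 12 there were 100 spliced reads. Its reads were 33 and 46 at CT4, 37 and 39 at CT10, 53 and 60 at CT16, and 61 and 100 at CT22, so that all night libraries were above all day libraries. That order, too, was not counted over other introns. Intron 12 held 429 of the 871 reads in the Vipr2 intron sum (49.3%). The 42-base exon 12, which lies before it, was skipped in 13 spliced reads. For Vipr2 no difference in exon usage passed, between day and night or between dusk and dawn (edgeR diffSpliceDGE, adjusted p = 1 for both), in tests that called 0 of 9202 genes on each axis (0%), with 178 (1.93%) and 119 (1.29%) genes at an unadjusted p under 0.05.

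Vip was spliced with a choice of acceptor at 3 exons. At exon 3, 243 of 1740 spliced reads used the acceptor that leaves out the 3 bases shown in capitals, a share of 14.0% (95% Wilson interval 12.4 to 15.7%, counting error only, as for all intervals here). At exon 6 the same kind of choice was made in 214 of 1367 reads (15.7%, 13.8 to 17.7%), and at exon 5 in 63 of 852 reads (7.39%, 5.82 to 9.35%), a pair of junctions included only when the read minimum was 5. By library the exon 3 share was 16.8 and 11.0% at CT4, 14.4 and 11.1% at CT10, 21.1 and 8.45% at CT16, and 14.5 and 13.4% at CT22. Day libraries averaged 13.3 ± 2.81% and night libraries 14.4 ± 5.23% (SD, n = 4 each), with an adjusted p of 0.743 by the exact permutation test over 4 pairs of junctions. The 4 libraries of the second cycle, 8.45 to 13.4%, lay below the 4 of the first, 14.4 to 21.1%, an order noticed in the data and not tested. At exon 6 the day libraries averaged 14.6 ± 3.02% and the night libraries 17.0 ± 2.62% (exact permutation, adjusted p = 0.743). For Vip no difference in exon usage passed on either axis (edgeR diffSpliceDGE, adjusted p = 1).

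In Adcyap1r1 the hop exon was both included and skipped in every library. Of the reads joining exon 15 to an exon before it, 162 came from the hop exon (exon 14) and 173 skipped it, an inclusion of 48.4% (Wilson interval 43.1 to 53.7%). Counted at its other side, 130 of 303 reads entered the hop exon, 42.9% (37.5 to 48.5%). By library the inclusion, counted at exon 15, was 64.5 and 32.8% at CT4, 30 and 62.5% at CT10, 44.2 and 45.8% at CT16, and 54.4 and 58.8% at CT22. These shares rest on 24 to 68 reads each, so that the lowest has an interval of 16.7 to 47.9% and the highest one of 46.9 to 78.9%. Day libraries averaged 47.5 ± 18.6% and night libraries 50.8 ± 6.97% (SD, n = 4 each; exact permutation, adjusted p = 0.743). Of 130 reads that entered the hop exon, 23 used the acceptor that leaves out its first 3 bases (17.7%, 12.1 to 25.2%), which in rat PAC1 distinguishes the hop2 from the hop1 form. The hip exon was joined by 3 reads upstream and 1 downstream, in 2 libraries. Skipping of both the 21-base exon 5 and the 42-base exon 6, which code for part of the ligand-binding domain, was seen in 11 reads.

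**Figure D5:**
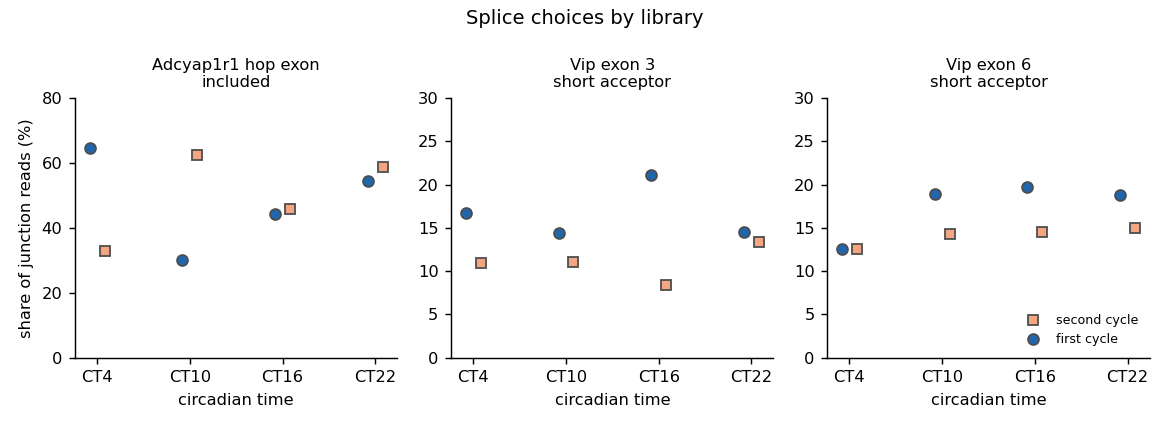
Share of junction reads, in percent, that include the Adcyap1r1 hop exon (left) or use the acceptor that leaves out 3 bases at Vip exon 3 (middle) and exon 6 (right), by circadian time; squares are second-cycle and circles first-cycle libraries. Hop inclusion runs from 30 to 64.5%, with the 2 libraries of CT4 and of CT10 far apart, and at Vip exon 3 the second-cycle libraries lie below the first-cycle ones.

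Adcyap1r1 exon 1 (mm9 chr6:55401936-55402362) had 7 and 9 reads at CT4, 7 and 10 at CT10, 15 and 12 at CT16, and 69 and 12 at CT22. The first CT22 library stood apart, and the others had 15 reads or fewer. Exon 2 also had its most reads in that library, 51 against 13 to 25 in the others. There, 6 spliced reads joined exon 1 to exon 2. The test of exon usage between day and night, which combines the exons' p-values by Simes' method, gave the gene an unadjusted p of 0.0116 in edgeR and an adjusted p of 1. The F test over all its exons gave an unadjusted p of 0.308 in edgeR, and without the first CT22 library the Simes p in edgeR was 0.968. In the last exon of Adcyap1r1, of 4920 bases, lay 78.5% of its exon reads, against 68.8% for Vipr2 and 44.7% for Vip.

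None of the other tested genes of the pathway lists passed the 24-h test. Of the 8 tested ligand, receptor and partner genes, Vipr2 was the one called in the 24-h test, with a median log2 peak-to-trough difference of 0.23 over the 8, against 0.29 over all genes tested. Adcyap1 had 50.2 to 65.7 CPM and a difference of 0.26 ± 0.14 (edgeR adjusted p = 0.721). None of 9 genes for processing and clearing the peptides was called, and their median difference was 0.25. Pcsk1n, an inhibitor of the prohormone convertase that cuts such precursors, had 263 CPM in the first CT22 library and 19.0 to 59.9 CPM in the other 7, a wave of 2.15 ± 0.86 (edgeR adjusted p = 0.554). Pam, which amidates the ends of both peptides, had 0.25 ± 0.12 (edgeR adjusted p = 0.668), and Pcsk2, a prohormone convertase, 0.34 ± 0.18 (edgeR adjusted p = 0.718).

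Of 21 genes that carry the signal of Gs to cAMP and its targets, none was called and 4 had an unadjusted p under 0.05 in edgeR, against 8.6% of all genes, with a median of 0.28. Creb1, a transcription factor that protein kinase A phosphorylates, averaged 82.6 CPM, with 68.0 and 79.6 CPM at CT4, 75.2 and 61.5 at CT10, 98.1 and 100.3 at CT16, and 84.8 and 93.4 at CT22. Its wave of 0.57 ± 0.14 with a peak at CT18.8 did not pass (edgeR adjusted p = 0.349). The night libraries of Creb1 were all above its day libraries, but it was named for its low p among the 21. How many genes show such an order was not counted. Adcy9, an adenylyl cyclase, had a wave of 0.90 ± 0.22 peaking at CT1.2 (edgeR adjusted p = 0.339), and Rapgef3, a cAMP-activated exchange factor, one of 0.46 ± 0.15 peaking at CT15.3 (edgeR adjusted p = 0.535). None of 9 Gq and calcium genes was called (median 0.31), and the lowest p among them belonged to Prkca, a protein kinase C, with 0.46 ± 0.14 peaking at CT21.4 (edgeR adjusted p = 0.496), before Plcb1 at 0.38 ± 0.14 and Plcb3 at 0.49 ± 0.22, which encode phospholipases C. None of the 9 tested genes of other class B1 receptors was called (median 0.54), Calcr among them with 0.25 ± 0.17 (edgeR adjusted p = 0.786), and Glp1r and Gipr were read at under 3 CPM. Of 18 clock genes fitted as a reference, 5 were called, against 0.112% of all genes.

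The genes whose levels followed each member most closely over the 8 libraries were ranked among 11899 genes by Pearson's r of log2 CPM, as a description. For Vipr2 they were Rfk (r = 0.971), Dyrk1a (0.965), Dnttip2 (0.962), Arl4a (0.961) and Pafah1b2 (0.955). For Vip they were BC034090 (0.943), Casp2 (0.942), Rftn1 (0.933), Usp1 (0.929) and Zfp111 (0.926), and for Adcyap1r1 Nfyc (0.990), Sdha (0.966), Atxn10 (0.963), Got1 (0.961) and Rasgrf1 (0.955). None of these 15 genes passed the 24-h test. Among the members, r was 0.644 for Vip with Vipr2, -0.241 for Vipr2 with Adcyap1r1 and -0.0062 for Vip with Adcyap1r1. The second CT22 library was the highest for both Vip and Vipr2, and without it, an alternative added after the values were seen, r was -0.13 for Vip with Vipr2, -0.351 for Vipr2 with Adcyap1r1 and 0.0489 for Vip with Adcyap1r1. The r of the named genes was then 0.913 to 0.956 for Vipr2, 0.681 to 0.912 for Vip and 0.963 to 0.990 for Adcyap1r1.

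The authors' deposited table of a JTK rhythm test lists Vipr2 with an adjusted p of 0.0220, a q-value of 0.978 and a peak at 22 h. For Vip and Adcyap1r1 the authors' deposited table lists an adjusted p of 1. Over all genes of the authors' deposited table the lowest q-value is 0.823, and 555 genes have an adjusted p under 0.05. In the authors' deposited table of introns, intron 4 of Vipr2 is listed with an adjusted p of 0.0220, a q-value of 1 and a peak at 19 h. Of the 3 genes, 1 of 36 introns, 3 of 50 exons and 4 of 71 junctions have an adjusted p under 0.05 in the authors' JTK test. None of these passes by q-value. The shares over all introns, exons and junctions were not counted, so these counts cannot be set against a background.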

How the data were processed

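The files hold counts of reads per gene, intron, exon and splice junction that the authors deposited, with a JTK p-value, q-value and phase (LAG) for each row, per the file headers. The submitters' processing notes name STAR 2.3.0e and mm9. How reads were assigned to features and strands, and how library totals were made nearly equal, is not given in the sources used here. Libraries were grouped by circadian time from their titles. Genes with at least 10 reads in 2 libraries were fitted with edgeR 4.0.16 (R 4.3.3, TMM factors, quasi-likelihood F-test, Benjamini-Hochberg at 0.05) on a day-night and a dusk-dawn term, which together form a 24-h wave. Non-overlapping introns were summed per gene, exon usage was tested with diffSpliceDGE, and ratios and junction shares with exact permutation tests in Python 3.11.15. DESeq2 1.42.0 was an alternative. Totals were 11123610 to 11131890 reads per library in the gene table. The fits were also run on simulated counts with the same dispersion for every feature. That setting is simpler than these data, so it cannot show how the fits behave on these libraries. Exon numbers come from matching introns to GENCODE M21 on GRCm38, and no coordinate was converted. Lengths were the same for 6 of 6 Vip, 16 of 16 Adcyap1r1 and 11 of 12 Vipr2 introns. The named genes were the members, all other ligand, receptor and partner genes, and the 3 genes with the lowest p of each further pathway list. The members and lists were chosen with earlier results of these data known.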

Additional observations from a re-analysis of the deposited data

Results flagged for a closer look

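Reads on the strand opposite to the 3 genes were present in the antisense table, which no comparison used. They numbered 88 for Vip (0.393% of its sense reads), 16 for Vipr2 (0.256%) and 248 for Adcyap1r1 (0.602%), against 0.751% over the 2864 genes with at least 1000 mean sense reads. The first CT10 library had 0.326% over those genes, and the others 0.723 to 0.876%.

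Some libraries lay far from the other 3 of their group of 4. These were the second CT22 library for Vip among night libraries (375 CPM), the second CT4 library for Vipr2 intron reads among day libraries (107 reads), and the second CT16 library for Adcyap1r1 intron reads among night libraries (105 reads). The first CT4 library stood apart for Adcyap1r1 intron reads (229 reads) both around dawn and within the first cycle. Of the 60 groups looked at, chance would set apart about 1 in 20.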

How the results depend on the processing

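With no filter on low counts, edgeR called 362 genes for the 24-h wave, 137 for day against night, 239 for dusk against dawn, 2 between cycles, 64 for the cycle by time interaction and 124 for introns. DESeq2 called 98, 56 and 34 for the wave, day against night and dusk against dawn. The oligodendrocyte term gave 32 for day against night, the cycle term 6 for dusk against dawn, and DESeq2 size factors 1 for the interaction. Intron calls numbered 20 with their own TMM factors and 6 over all introns, junction calls 7 with their own factors and 33 from 5 reads, and the gene-level F test of dusk-dawn exon usage called 10. None of the ratios (0) passed for dusk against dawn. Leaving out 1 library gave 7 to 43 genes for the wave, 4 to 28 for day against night, 3 to 60 for dusk against dawn, 0 to 2 between cycles, 7 to 30 for introns, 0 to 64 for junctions, 0 to 28 for day-night exon usage and 0 to 2 ratios.

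Directions turned for small differences. With the SCN gene level as a term Vip had 0.34 for the wave, 0.050 for day minus night and 0.23 for dusk minus dawn. Adcyap1r1 dusk minus dawn was -0.0072 with DESeq2 size factors and in DESeq2, -0.0048 without the filter and -0.0035 with the cycle term. The Vip exon 6 share differed by 2.15 points for dusk minus dawn. Leaving out 1 library gave Vip 0.11 to 0.46 for the wave, -0.23 to 0.048 for day minus night and -0.29 to 0.058 for dusk minus dawn, Adcyap1r1 -0.091 to 0.080 for dusk minus dawn, and Vipr2 -0.035 to 0.33 between cycles. It gave -3.79 to 15.5 points for the share entering the hop exon, -9.04 to 2.46 for hop inclusion and -3.01 to 1.22 for Vip exon 3. The cause was not tested. The Vipr2 day minus night difference lay between -1.01 and -0.68 with 1 library left out, and its call was lost in 5 of 8 cases (adjusted p up to 0.106). The labels give no replicate numbers, but the titles place each library in 1 of 2 cycles. With the cycle as a block, a paired analysis of the 4 times, edgeR called 21 genes for the wave, 17 for day against night and 6 for dusk against dawn, and no call of the 3 genes changed (Vipr2 wave 1.43, adjusted p = 0.0155).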
